A study of Mus musculus with 2 samples.

Results

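The 94 genes described here encode the nuclear part of oxidative phosphorylation in mouse liver cells. They are all symbols in the count tables that begin with Nduf followed by a, b, c, s or v, with Uqcr, with Atp5 or with Cox and a digit from 4 to 8, together with Sdha, Sdhb, Sdhc and Sdhd, without pseudogene and Rik names. They were 94 of 28200 genes with a count in either library. By complex, 38 belong to complex I, 8 are complex I assembly factors, 4 belong to complex II, 8 to complex III, 19 to complex IV and 17 to complex V. The rule itself uses names and no measured value.

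Oxidative phosphorylation makes ATP at the inner mitochondrial membrane. Complexes I and II take electrons from NADH and succinate, complex III passes them to cytochrome c, complex IV hands them to oxygen, and complex V, the ATP synthase, uses the proton gradient so formed. A few core subunits are encoded in mitochondrial DNA and all others in the nucleus, so both sets of transcripts are needed for a complete enzyme. Hepatocytes are rich in mitochondria, since they run gluconeogenesis, urea synthesis and fatty acid oxidation, whereas endothelial cells are known for a high reliance on glycolysis.

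The study compared liver cells of 1 male mouse with genotype Cdh5-CreERT2; Ctgffl/fl and 1 littermate with genotype Ctgffl/fl, both after partial inferior vena cava ligation (pIVCL), an operation that congests the liver. Cdh5-CreERT2 is a Cre recombinase that tamoxifen switches on and that is made where the endothelial gene Cdh5 is transcribed, and floxed Ctgf, now named Ccn2, encodes a matricellular protein. Both mice carried the floxed alleles, both were operated and both samples carry the same batch label, so no unoperated or wild-type liver was compared. Livers were digested with pronase and collagenase, hepatocytes were spun out, dead cells and erythrocytes were removed on a density gradient, and the remaining cells were captured on the BD Rhapsody platform for whole transcriptome libraries. The sample titles give the genotypes the other way round from the genotype labels, and the libraries are named here by the genotype label.

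The 2 libraries held 106208933 counts in the control-labelled library and 129802501 in the knockout-labelled library, over 10000 barcodes each. After filtering, 7546 and 8361 cells remained, and 5018 and 6434 of them passed the marker gate of a single class. Ccn2 went with the genotype label and not with the title: in endothelial cells it stood at 972.5 CPM (counts of a gene per 1000000 counts of all cells of that class in that library) in the control-labelled library and at 4.51 CPM in the knockout-labelled library, and in stellate cells at 991.5 and 1059 CPM. At much lower levels Ccn2 was lower in the knockout-labelled library in other classes, too. It stood at 11.8 and 3.07 CPM in Kupffer cells, 12.9 and 1.7 CPM in monocytes and 20.7 and 1.8 CPM in B cells. Each group is 1 library from 1 mouse, so no difference between the groups has a replicate check and no p-value is given. Intervals are exact 95% intervals of counting error only, and genotype, mouse and library cannot be told apart.

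Cells were sorted into classes by counting detected markers, none of which is a member. The classes are endothelial-like, Kupffer-like and so on, and the suffix is left out from here. Of 17 classes, 9 had at least 50 cells in both libraries and are called the main classes: endothelial cells (1877 and 3467 cells, control first), Kupffer cells (927 and 1226), monocytes (724 and 207), stellate cells (443 and 489), T cells (202 and 280), hepatocytes (188 and 52), B cells (187 and 237), NK cells or ILC1 (123 and 72) and conventional dendritic cells (100 and 91). As a check of the gates, the endothelial list summed to 13617 and 19993 CPM in endothelial cells, and to 370.8 and 484.6 CPM in Kupffer cells, and the Kupffer list to 13047 and 16232 CPM in Kupffer cells and to 529.2 and 170.7 CPM in endothelial cells. The smooth muscle or myofibroblast class held stellate markers (11512 and 9082 CPM) above its own (9821 and 8830 CPM), since cells passing both gates were placed there. A gene counts as measured in a class with a sum of 20 counts or more over the libraries and 10 CPM or more in 1 of them. Of the members, 79 were measured in all 9 main classes, and Cox6a2, Cox7b2, Cox8b and Ndufb11b were measured in none.

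Hepatocytes had by far the highest level of the module. The 94 members together took 20862 CPM in the control-labelled library and 21753 CPM in the knockout-labelled library. Monocytes followed at 10225 and 12910 CPM, NK cells or ILC1 at 11222 and 8907 CPM, T cells at 11043 and 8993 CPM and conventional dendritic cells at 10317 and 9522 CPM. Kupffer cells stood at 9068 and 8237 CPM, endothelial cells at 8302 and 7483 CPM, stellate cells at 7596 and 6630 CPM and B cells at 7832 and 6195 CPM. In the order by mean, hepatocytes lay apart from monocytes in both libraries and conventional dendritic cells lay apart from Kupffer cells, while all other neighbours among the main classes overlapped between libraries. Per cell, the median cell gave 2.23% and 2.09% of its counts to members among hepatocytes, and 0.780% and 0.740% among endothelial cells.

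**Figure D1:**
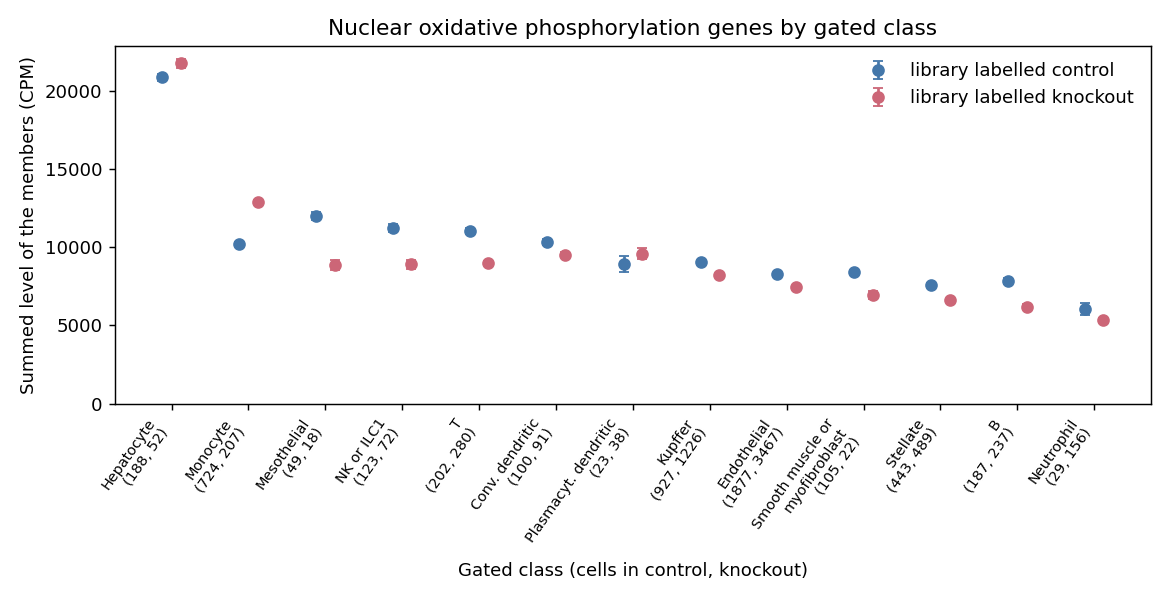
Summed level of the 94 members in CPM (y axis) for each gated class with at least 15 cells in both libraries (x axis, cells in brackets). Points are the libraries labelled control (blue) and knockout (red) and bars are exact 95% Poisson intervals, which are often smaller than the point; hepatocytes stand at 20862 and 21753 CPM, and the blue point is above the red one in every class shown except hepatocytes, monocytes and plasmacytoid dendritic cells.

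Hepatocytes were the highest class for 75 of the 79 members measured in every main class. Monocytes were highest for 2, Kupffer cells for 1 and T cells for 1. The share of all genes that are highest in hepatocytes is not given here. A named subunit of each complex shows the size of the gap. Ndufv1, the complex I subunit that takes electrons from NADH, stood at 97.6 and 100.8 CPM in hepatocytes and at 29.8 and 28.6 CPM in endothelial cells. Sdha, the flavoprotein of complex II, stood at 254.8 and 226.8 CPM in hepatocytes and at 118.6 and 112 CPM in endothelial cells. In each of these genes both hepatocyte values lie above both endothelial values. Uqcrc1, a core protein of complex III, stood at 109.8 and 103.5 CPM against 43.5 and 35.4 CPM. Cox4i1, a regulatory subunit of complex IV, stood at 408.1 and 553.4 CPM against 254.6 and 219.5 CPM. Atp5b, the catalytic beta subunit of the ATP synthase, stood at 436.3 and 359.1 CPM against 141.4 and 114.2 CPM, so it, too, did not overlap between the 2 classes.

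The spread between classes differed between members. Ndufa4l2, Cox6b2, Cox7a1 and Cox4i2, which are tissue-restricted paralogs, were measured in 1 main class each and had 0 counts in B cells of both libraries, so the distance between their highest and lowest class is set by the pseudocount and is not a fold. Of the members measured in all 9 main classes, Uqcrq, a small subunit of complex III, had the widest, at 3.37 between its highest and lowest class in log2(CPM + 1). Uqcrq stood at 562 and 522.8 CPM in hepatocytes and at 64.2 and 41.5 CPM in B cells, which were the lowest class. At the other end were Cox7a2l (0.929), Atp5g2 (0.959) and Ndufaf3 (0.970). Cox7a2l, a factor that joins complexes III and IV into supercomplexes, was 203 and 142.2 CPM in hepatocytes and 272.7 and 231.8 CPM in monocytes. It is thus among the 4 members measured everywhere that were not highest in hepatocytes. Atp5g2, which encodes the c subunit of the ATP synthase, was 638.7 and 449.9 CPM in hepatocytes and 654.4 and 441.4 CPM in T cells, so the 2 classes overlapped.

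The mitochondrially encoded subunits did not follow that order. Their 13 genes together took 68139 CPM in hepatocytes of the control-labelled library and 144238 CPM in those of the knockout-labelled library, and 80613 and 83563 CPM in endothelial cells. B cells, the lowest main class for nuclear members by the mean of the libraries, had 119425 and 111714 CPM. For each 100 mitochondrially encoded counts there were 30.6 and 15.1 nuclear member counts in hepatocytes, 10.3 and 8.96 in endothelial cells and 6.56 and 5.55 in B cells. Between the hepatocytes of the 2 libraries the nuclear sum differed by a log2 ratio of 0.060 and the mitochondrial sum by 1.08. All mitochondrial genes took 6.81% of hepatocyte counts in the control-labelled library and 14.4% in the other, and cells above 25% had been set aside in both. The 52 hepatocytes of the knockout-labelled library held 1111265 counts at a median of 4865 per cell, so deep cells weigh heavily in these sums.

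Several complex IV subunits and 1 complex IV subunit once assigned to complex I exist as pairs of paralogs, and these pairs differed between classes. A paralog's share of the counts of its pair is used to compare classes, not to compare the levels of the 2 genes. Cox6a2, known as the heart and skeletal muscle form of Cox6a, was found in plasmacytoid dendritic cells (23 and 38 cells), the class that makes type I interferon. It stood at 1029 CPM (123 counts; interval 855.1 to 1228) and 897.1 CPM (251 counts; 789.5 to 1015) there. Its share of Cox6a1 and Cox6a2 counts was 84.3% (Clopper-Pearson 77.3 to 89.7) and 85.7% (81.1 to 89.5). In endothelial cells the share was 0.148% and 0.012%, and in Kupffer cells 0.282% and 0.453%. Both libraries thus gave the same picture, with intervals in plasmacytoid dendritic cells that overlap each other and lie far from those of endothelial and Kupffer cells. Cox6a2 was detected in 91.3% and 89.5% of plasmacytoid dendritic cells, at median depths of 4615 and 7520 counts per cell, and in 0.213% and 0.0288% of endothelial cells, at median depths of 6747 and 7154.

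Ndufa4l2, a paralog of the complex IV subunit Ndufa4 and known as a target of hypoxia-inducible factor, was found in mesenchymal cells. In stellate cells, the vitamin A-storing pericytes of the liver, it stood at 44.9 CPM (185 counts) and 53.7 CPM (236 counts), and its share of the pair was 22.4% (19.6 to 25.4) and 30.2% (27.0 to 33.5). In the smooth muscle or myofibroblast class (105 and 22 cells) it stood at 73.9 and 113.1 CPM, with shares of 33.0% (28.5 to 37.8) and 53.3% (42.5 to 63.9). In endothelial cells the share was 0.652% and 0.116%. Ndufa4 itself stood at 155.7 and 124.3 CPM in stellate cells and at 155.7 and 148.9 CPM in endothelial cells, so the partner's levels overlapped between the 2 classes. In both mesenchymal classes the share was higher in the knockout-labelled library and its interval did not overlap that of the other library. In stellate cells the ratio of Ndufa4l2 itself was 0.26 (-0.03 to 0.54), an interval that spans 0, while that of Ndufa4 was -0.32 (-0.49 to -0.16), so the share differed more through the partner.

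Cox4i2, the oxygen-responsive form of Cox4 known from lung, was measured among the main classes in stellate cells. It stood there at 13.8 CPM (57 counts) and 7.28 CPM (32 counts), a log2 ratio of -0.93 (-1.60 to -0.28), which was the lowest of all measured members in stellate cells. Its share of Cox4i1 and Cox4i2 counts was 7.19% (5.49 to 9.21) and 4.83% (3.32 to 6.75) in stellate cells and 6.54% and 12.6% in the smooth muscle or myofibroblast class. The direction between libraries was thus opposite in the 2 mesenchymal classes, on 27 and 11 counts in the second, and in both the intervals of the shares overlapped. Cox6b2, known as the testis form of Cox6b, stood at 6.67 CPM (32 counts) and 18.4 CPM (54 counts) in monocytes, and Cox7a1, the heart and muscle form of Cox7a, at 8.27 CPM (15 counts) and 14.4 CPM (16 counts) in hepatocytes.

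**Figure D2:**
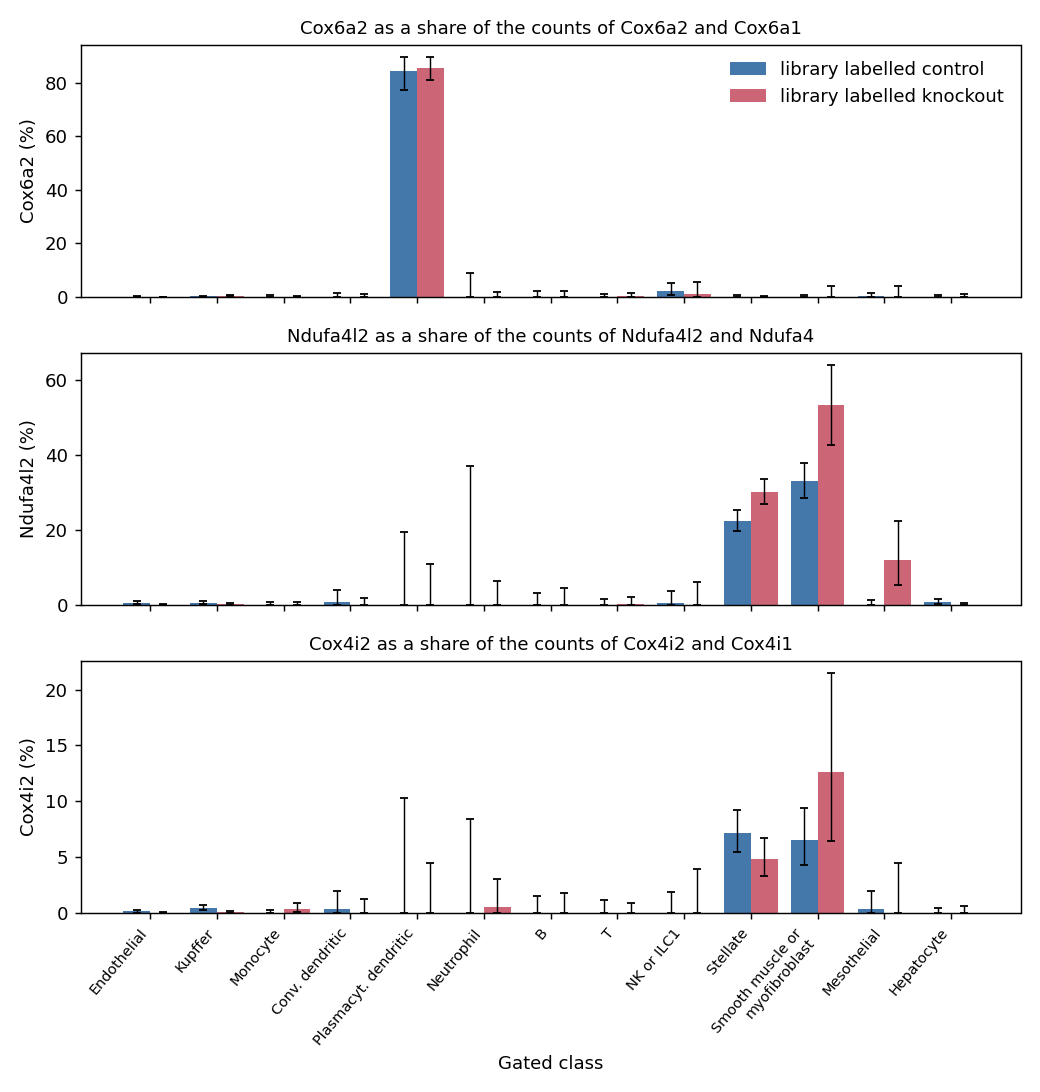
Share of each paralog in the counts of its pair (y axis, %) by gated class (x axis) for the libraries labelled control (blue) and knockout (red), with exact 95% Clopper-Pearson intervals. Cox6a2 reaches 84.3% and 85.7% in plasmacytoid dendritic cells, Ndufa4l2 reaches 33.0% and 53.3% in the smooth muscle or myofibroblast class, and long bars at 0 mark classes with few counts of the pair.

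The genes whose log2(CPM + 1) over 27 class and library points was most like that of these paralogs were found by Pearson's correlation, as a description. For Cox6a2 they were Gm21762 (0.969), Klk1 (0.967), which is a marker of the plasmacytoid gate, and ENSMUSG00000120731 (0.966). For Ndufa4l2 they were Ereg (0.961), Kcne4 (0.961) and Grhl3 (0.960), and for Cox4i2 they were Ccl19-ps2 (0.959), Nfatc4 (0.957) and Ereg (0.954). The points share 2 libraries and a few lineages, so these values describe a common place of expression.

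The promoters of the members more often held letters that known regulators of mitochondrial genes bind. A window from 250 bases before to 50 bases after the start was at hand from RefSeq (GRCm38.p6, an older build than that of the counts) for 77 members and 27025 genes in all. A gene was counted where any of its windows held the motif, and the number of starts per gene was not compared. The nuclear respiratory factor 1 (NRF1) motif is the palindrome in capitals in the Atp5g2 window printed here. It was in 9.09% of the members and 1.07% of all genes. The YY1 motif AAGATGGCG was in 10.4% and 1.64%, and the ETS motif CCGGAAG, which GABP recognises, in 24.7% and 9.93%. The oestrogen-related receptor motif TCAAGGTCA was in 2.6% and 0.466%, and TATAAA in 10.4% and 15.7%. Both strands were read and motifs may overlap; the median GC content of the windows was 58.5% for members and 52.7% for all genes, and its part in these shares was not tested. A match describes letters and is not a site shown to be bound. The 4 windows printed here, each the 200 bases before a start on the minus strand and written in the direction of transcription, show examples of the NRF1, ETS, oestrogen-related receptor and YY1 motifs, with the motif, or its reverse complement, in capitals. Cox6a1 (chr5:115348959-115349158) has an NRF1 and an ETS motif, Atp5g2 (chr15:102671048-102671247) an NRF1 motif, Atp5g3 (chr2:73911327-73911526) an oestrogen-related receptor motif, and the second start of Atp5j (chr16:84834977-84835176), which encodes coupling factor 6 of the ATP synthase, a YY1 and an ETS motif.
Cox6a1: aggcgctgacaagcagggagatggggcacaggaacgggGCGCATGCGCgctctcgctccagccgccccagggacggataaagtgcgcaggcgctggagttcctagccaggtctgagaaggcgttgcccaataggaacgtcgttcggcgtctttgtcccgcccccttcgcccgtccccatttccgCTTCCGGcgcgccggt
Atp5g2: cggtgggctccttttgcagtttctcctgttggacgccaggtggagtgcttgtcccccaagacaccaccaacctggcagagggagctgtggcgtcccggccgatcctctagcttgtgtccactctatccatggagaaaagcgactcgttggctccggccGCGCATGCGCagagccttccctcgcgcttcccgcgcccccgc
Atp5g3: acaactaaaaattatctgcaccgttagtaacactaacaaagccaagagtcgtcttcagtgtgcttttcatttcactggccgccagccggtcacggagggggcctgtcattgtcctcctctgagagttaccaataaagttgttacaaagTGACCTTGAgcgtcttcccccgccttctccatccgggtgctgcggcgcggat
Atp5j: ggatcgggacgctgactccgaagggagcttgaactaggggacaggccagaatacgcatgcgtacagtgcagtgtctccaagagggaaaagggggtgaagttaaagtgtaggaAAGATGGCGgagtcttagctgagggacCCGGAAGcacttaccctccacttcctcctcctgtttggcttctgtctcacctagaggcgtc

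Between the libraries, the module differed by little in most classes, and it was lower in the knockout-labelled library in 7 of the 9 main classes. The log2 ratio of the summed members, labelled knockout over labelled control, was -0.15 (-0.16 to -0.14) in endothelial cells, -0.14 (-0.15 to -0.13) in Kupffer cells and -0.20 (-0.22 to -0.17) in stellate cells. It was -0.12 in conventional dendritic cells, -0.30 in T cells, -0.33 in NK cells or ILC1 and -0.34 in B cells. Hepatocytes (0.060) and monocytes (0.336) had the opposite sign. The hepatocyte value turned to -0.047 under the looser gate and to -0.103 with the mean of per-cell CPM, and was 0.543 with TMM scaling. The classes come from the same 2 libraries, so a shared sign is not repeated evidence. In endothelial cells the ratio was -0.005 with either TMM or median-of-ratios scaling, which shift the endothelial library ratio by 0.145, so its direction rests on the scaling.

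Against a background of all measured genes, few members lay 1.5-fold apart in the larger classes. In endothelial cells 0 of 83 measured members were at least 1.5-fold higher and 2 were at least 1.5-fold lower, where 5.76% and 14% of all measured genes were. In Kupffer cells 0 of 84 were higher and 1 was lower (4.48% and 6.61% of all genes), and in stellate cells 0 of 85 and 3 (7.39% and 11.1%). The median member stood at -0.095 in endothelial cells, beside -0.054 for all genes, at -0.144 in Kupffer cells, beside 0.016, and at -0.184 in stellate cells, beside -0.017. Conventional dendritic cells had 1 higher and 4 lower of 85 (11.6% and 10.8% of all genes) and T cells 1 higher and 9 lower of 86 (12.3% and 11.7%). In B cells 3 were higher and 23 lower of 85 (14.1% and 18%), and in NK cells or ILC1 2 were higher and 17 lower of 79 (16.9% and 14.2%). The counts of members thus lay below the background in endothelial, Kupffer and stellate cells, and in B cells and NK cells or ILC1 the calls were mostly lower ones. The background was not matched for level, and genes with few counts pass the limit more easily through counting error. Hepatocytes had 5 higher and 0 lower of 86, where 10.7% of all genes were higher and 49% lower and the median gene stood at -0.567. With TMM scaling, which adds 0.48 to every hepatocyte ratio, 34 hepatocyte members were at least 1.5-fold higher and 0 lower. Among T cells with no cycling marker 3 of 81 members were higher and 17 lower, against 15.5% and 11.7% of all genes. Among such NK cells or ILC1 4 of 72 were higher and 10 lower, against 18.8% and 13.4% of all genes. In B cells median-of-ratios scaling gave 5 higher and 14 lower and the looser gate 12 lower, and in T cells the mean of per-cell CPM gave 20 lower. For TMM scaling, median-of-ratios scaling, the looser gate and the mean of per-cell CPM the share of all genes is not given here. The counts under these alternatives thus cannot be read against a background.

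**Figure D3:**
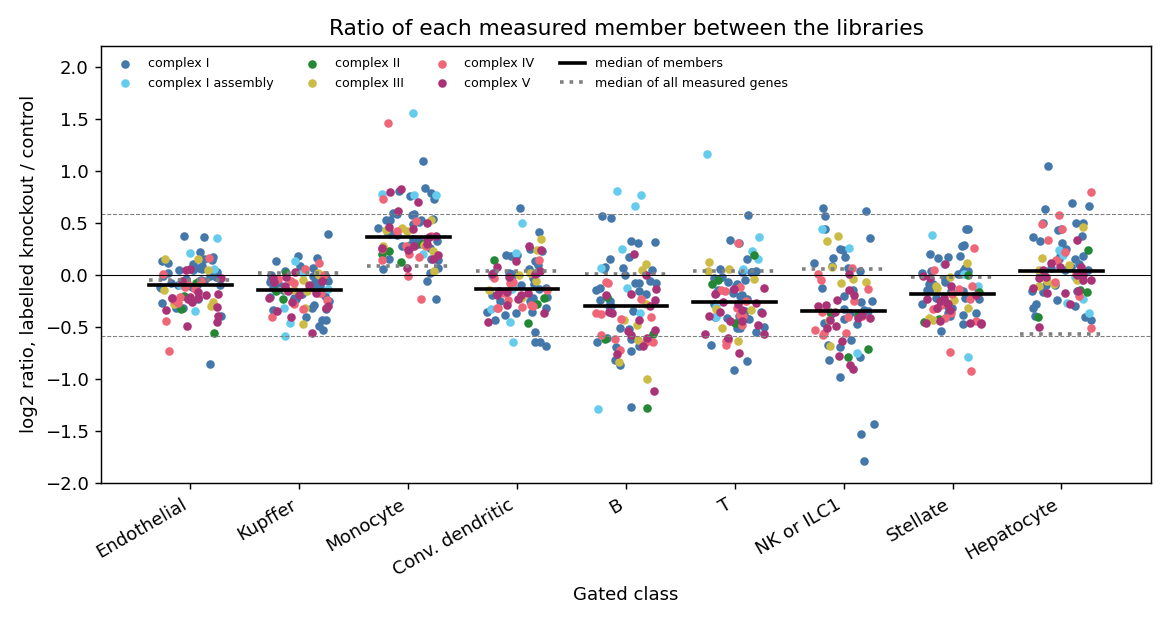
log2 ratio, labelled knockout over labelled control (y axis), of each measured member in the 9 main classes (x axis), coloured by complex. Black bars are member medians, dotted grey bars medians of all measured genes and dashed lines the 1.5-fold limits; the member median is -0.095 in endothelial cells, 0.359 in monocytes and 0.037 in hepatocytes, where the median of all genes is -0.567.

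The complexes differed from each other. Complex V stood at 2649 and 2249 CPM in endothelial cells (log2 ratio -0.24, -0.25 to -0.22), whereas complex I stood at 2332 and 2220 CPM (-0.07, -0.09 to -0.05). The same order held in Kupffer cells, at -0.22 for complex V and -0.10 for complex I, and in stellate cells, at -0.29 and -0.10. The intervals of complexes I and V do not overlap in any of these 3 classes. The members of a complex were not alike, and the sums rest in large part on a few of them. In endothelial cells Atp5g2 (-0.50), Atp5g1 (-0.45) and Atp5g3 (-0.40) were the lowest of complex V. Atp5h (0.06) and Atp5j (0.04) lay above 0 there, and the other complex V members below 0. In complex I, Ndufa8 stood at 145 and 80.2 CPM in these cells. With TMM scaling complex I stood at 0.07 and complex V at -0.09 in endothelial cells, so the sign for complex I turned and complex V remained the lower one. Complex III stood at -0.07, -0.10 and -0.15 in the same 3 classes, complex IV at -0.15, -0.11 and -0.23, and complex II at -0.26, -0.07 and -0.21; with TMM scaling complex III turned to 0.08 in endothelial cells. The 8 complex I assembly factors, which build the enzyme but are not part of it, stood at 116.8 and 117.9 CPM in endothelial cells (0.01, -0.07 to 0.10). With TMM scaling they stood at 0.16 there and turned to 0.04 in stellate cells. In hepatocytes complex V (-0.07) lay below complex I (0.13), whereas in monocytes it lay above it (0.41 and 0.37).

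Some members had the same sign in nearly all main classes. The share of all genes that do so was not counted, and the classes come from the same 2 libraries. Ndufa8, an accessory subunit of complex I, was below 0 in all 9 main classes and at least 1.5-fold lower in 5 of them. It stood at 145 and 80.2 CPM in endothelial cells (-0.86, -0.94 to -0.77) and at 63.2 and 26.1 CPM in B cells (-1.27). Cox5a, a complex IV subunit, was below 0 in 8 classes and at least 1.5-fold lower in 4, with 103.7 and 62.3 CPM in endothelial cells (-0.74, -0.83 to -0.64) but 343.3 and 329.1 CPM in Kupffer cells (-0.06). Atp5g1, Atp5g2 and Atp5g3 encode the same mature c subunit of the ATP synthase ring, and each was lower in endothelial cells. Atp5g1 stood at 102.4 and 74.9 CPM (-0.45), Atp5g2 at 438.8 and 311.1 CPM (-0.50) and Atp5g3 at 265.4 and 201.4 CPM (-0.40) there. Atp5g2 and Atp5g3 were below 0 in 8 of 9 classes, with monocytes as the exception. TMM and median-of-ratios scaling add 0.48 and 0.47 to every hepatocyte ratio, so that the hepatocyte values of Ndufa8 (-0.30), Cox5a (-0.07) and Atp5g3 (-0.05) turn to above 0 there. In the other direction, Ndufs7, the core subunit that carries the last iron-sulphur cluster of complex I, was above 0 in all 9, at 19.4 and 25.1 CPM in endothelial cells (0.37, 0.18 to 0.57), with 0 classes past 1.5-fold. Its counting interval spanned 0 in conventional dendritic cells, B cells, T cells, NK cells or ILC1 and hepatocytes. Ndufb10, an accessory subunit, was above 0 in 8, at 42.2 and 54.3 CPM in endothelial cells (0.36) and at 37.3 and 48.9 CPM in Kupffer cells (0.39). Complex I subunits thus lay at both ends.

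**Figure D4:**
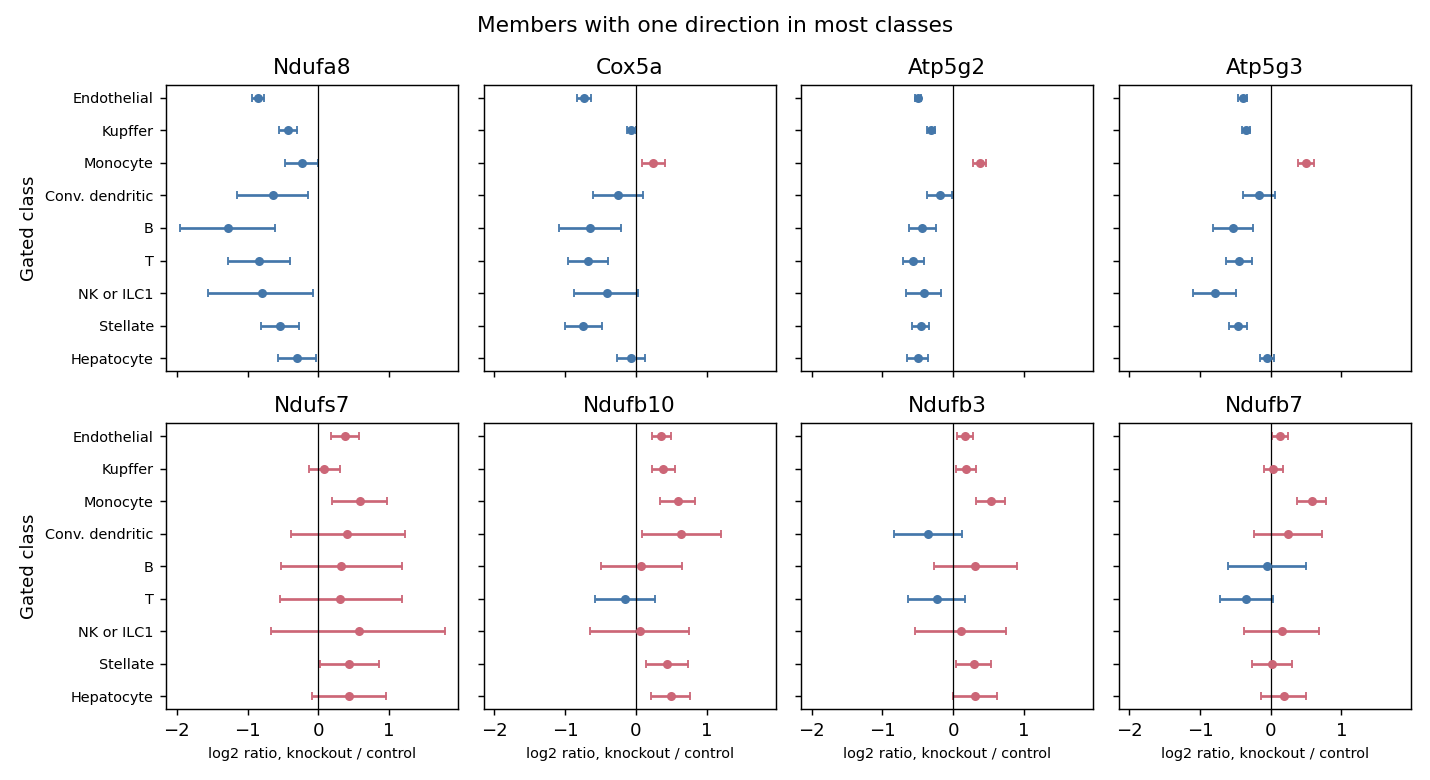
log2 ratio, labelled knockout over labelled control (x axis), with exact 95% counting intervals, in the 9 main classes (y axis) for 4 members mostly below 0 (top) and 4 mostly above 0 (bottom); blue is below 0 and red above 0. Ndufa8 lies below 0 in 9 of 9 classes and Ndufs7 above 0 in 9 of 9, while Atp5g2 and Atp5g3 lie above 0 in monocytes alone.

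The members at the ends of each list differed between endothelial, Kupffer and stellate cells. In endothelial cells the 4 lowest were Ndufa8, Cox5a, Sdhd (-0.56), a membrane anchor of complex II, and Atp5g2, and the 4 highest were Ndufs7, Ndufb10, the assembly factor Ndufaf3 (0.35) and the accessory subunit Ndufs5 (0.22). Sdhd stood at 89.97 and 61.2 CPM in endothelial cells and at 158.1 and 160 CPM in Kupffer cells. In Kupffer cells the lowest were the assembly factor Ndufaf6 (-0.58), Atp5g1 (-0.56) and the accessory subunits Ndufb11 (-0.54) and Ndufb2 (-0.49), and the highest were Ndufb10 (0.39), Ndufb3 (0.18), Ndufa1 (0.16) and Ndufa2 (0.13). Ndufb11 stood at 60.1 and 41.5 CPM in Kupffer cells and at 83.7 and 79.1 CPM in endothelial cells. In stellate cells the lowest were Cox4i2, the assembly factor Ndufaf1 (-0.79), Cox5a (-0.74) and Ndufa8 (-0.54), and the highest were Ndufb10 (0.44), Ndufs7 (0.44), Ndufaf2 (0.38) and Ndufb3 (0.29). Ndufa8 and Cox5a were thus among the 4 lowest in both endothelial and stellate cells, and Ndufb10 was among the 4 highest in all 3 classes.

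Glycolysis genes in the same cells lay further apart between the libraries than the members. Of 16 glycolysis genes, 14 were measured in endothelial cells, 10 were at least 1.5-fold lower in the knockout-labelled library and 0 higher, with a median of -0.70; their sum was 2197 and 1394 CPM. In stellate cells 10 of 16 were lower (median -0.75), in B cells 11 of 14 (-0.78) and in Kupffer cells 6 of 14, with 1 higher (-0.51). Of all measured genes, 14% were at least 1.5-fold lower in endothelial cells, 11.1% in stellate, 18% in B and 6.61% in Kupffer cells. The shares at least 1.5-fold higher were 5.76%, 7.39%, 14.1% and 4.48%, in the same order. Monocytes went the other way, with 0 of 15 lower and 2 higher (median 0.13), where 14.9% and 19.8% of all genes were. Tpi1, Pgk1, Pkm and Ldha were among the lower ones in endothelial, stellate, B and Kupffer cells alike. Hk2, Pfkl and Slc2a1, which act in uptake and early steps, were among them in endothelial, stellate and B cells. Of 13 tricarboxylic acid cycle genes 0 were past 1.5-fold in endothelial, Kupffer or stellate cells, with medians of -0.30, -0.22 and -0.12. Of 15 fatty acid oxidation genes 1, Slc25a20, was at least 1.5-fold lower in endothelial cells. Of 11 regulators of mitochondrial gene expression, among them Ppargc1a, Nrf1, Gabpa and Tfam, 8 were measured in endothelial cells and 1, Ppargc1b, was at least 1.5-fold lower. The 13 mitochondrially encoded subunits had a summed ratio of 0.05 in endothelial cells and -0.26 in Kupffer cells.

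Other properties moved with the library. Hepatocyte transcripts outside hepatocytes, a sign of free RNA, were higher in the control-labelled library: 8 such genes summed to 497.8 and 162.9 CPM in endothelial cells, 454.3 and 134.7 CPM in Kupffer cells, 1292 and 155 CPM in B cells and 580.7 and 60.8 CPM in monocytes. Ribosomal protein genes took 5.05% and 3.89% of endothelial counts. Cells with at least 3 of 6 cycling markers (Mki67, Top2a, Ube2c, Cdk1, Ccnb2 and Birc5) were 6.02% and 1.59% of endothelial cells, 8.74% and 1.63% of Kupffer cells, 9.03% and 0.204% of stellate cells, 22.8% and 4.64% of T cells, and 3.18% and 54.1% of monocytes. The part of free RNA and of ribosomal transcripts in the member ratios was not tested.

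Cycling cells carried more of the module than cells of the same class and library with no cycling marker. In endothelial cells the members summed to 9988 CPM in 113 cycling cells and 7852 CPM in 1341 others in the control-labelled library (log2 ratio 0.35, 0.32 to 0.37), and to 9027 and 7419 CPM in the other library (0.28, 0.25 to 0.31). In Kupffer cells the ratios were 0.25 and 0.30. Monocytes had the widest gap, with 15821 against 9698 CPM (0.71) and 14120 against 9286 CPM (0.60), but the 2 states of the monocyte gate also differed in cell type markers. Mpo, a granule gene of granulocyte and monocyte progenitors, stood at 1042 and 1701 CPM in the cycling cells and at 0.275 and 1.62 CPM in the others. Ace, a marker of mature monocytes, stood at 5.63 and 3.22 CPM in the cycling cells and at 162.3 and 230.7 CPM in the others. Of other markers of the monocyte gate, Ly6c2 was higher in the cycling cells, at 2464 and 3358 against 980.7 and 1109 CPM. Ccr2 was lower but still present there, at 1495 and 1436 against 3203 and 3392 CPM. A difference in state and one in cell type thus cannot be told apart in this class. The control-labelled library alone had at least 20 cycling cells in the remaining classes compared, with ratios of 0.46 in T cells, 0.46 in NK cells or ILC1, 0.42 in stellate cells and 0.32 in the smooth muscle or myofibroblast class. In all 10 of these comparisons the interval lay above 0. Cycling cells were deeper, at a median of 14086 against 6277 counts in endothelial cells of the control-labelled library, and with non-cycling cells of like depth that ratio was 0.23.

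For the mitochondrially encoded subunits the log2 ratio of cycling to other cells lay below 0 in 6 of 10 comparisons. In endothelial cells they stood at 71952 CPM in cycling cells and 83103 CPM in others in the control-labelled library (-0.21), and at 70881 and 84725 CPM in the knockout-labelled library (-0.26). The ratio was -0.21 in T cells, -0.19 in NK cells or ILC1 and -0.21 in stellate cells, all of the control-labelled library, and in Kupffer cells it was -0.08 in the control-labelled library and 0.01 in the other, where the interval (-0.001 to 0.031) spans 0, while monocytes (0.07 and 0.11) and the smooth muscle or myofibroblast class (0.14) lay above 0. Glycolysis genes were higher in cycling endothelial cells by a like amount as the members, at 0.36 and 0.35, and ribosomal protein genes by less, at 0.18 and 0.12.

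**Figure D5:**
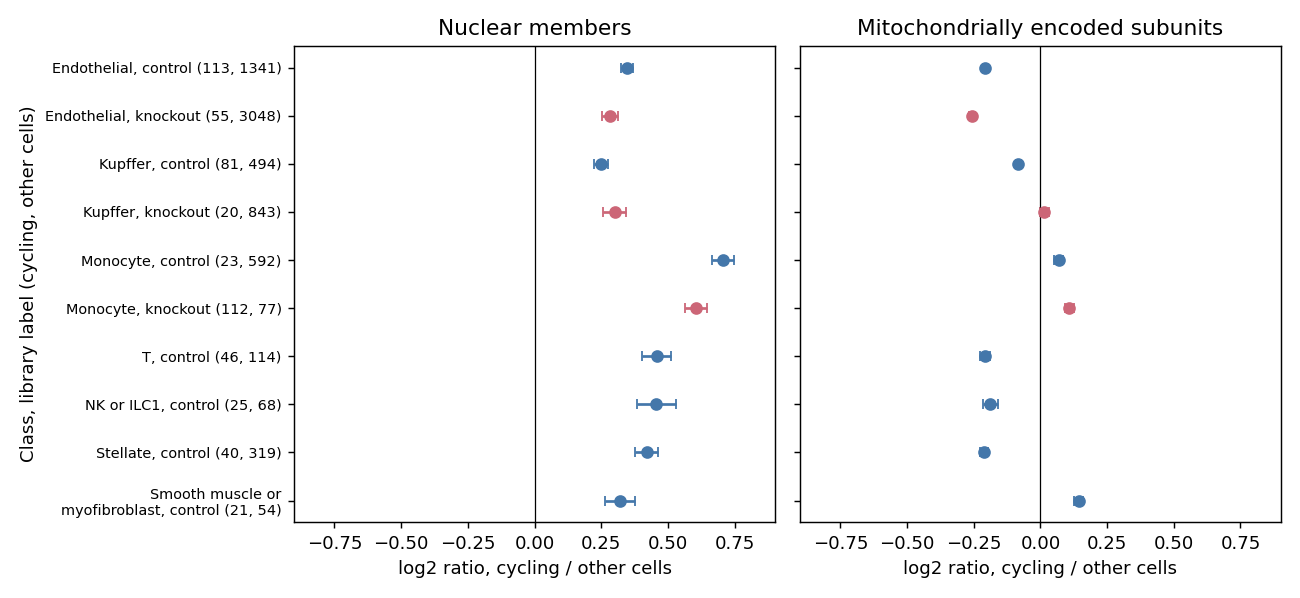
log2 ratio of cycling to other cells (x axes) within a class and library (y axis, cells in brackets), for the 94 nuclear members (left) and the 13 mitochondrially encoded subunits (right); blue is the control-labelled library, red the knockout-labelled library and bars are exact 95% counting intervals. All 10 nuclear values lie between 0.25 and 0.71, while 6 of the mitochondrial values lie below 0.

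Most members shared in this. In endothelial cells 76 of 83 and 76 of 84 measured members were above 0 in cycling cells. The share of all genes above 0 was not counted. The member medians were 0.338 and 0.291, beside 0.047 and 0.066 for all measured genes. In these cells 8 and 6 members were at least 1.5-fold higher, where 18.5% and 20.7% of all measured genes were. In each library 1 was at least 1.5-fold lower, where 11.8% and 11.3% were. That 1 was the assembly factor Ndufaf3, at -0.92 and -0.80. Cox5a, which was lower in the knockout-labelled library, was the highest of all members in cycling endothelial cells of both libraries, at 0.92 and 0.87. In monocytes 51 of 86 and 44 of 85 members were at least 1.5-fold higher in cycling cells, against 28.9% and 31.7% of all genes, and 2 and 1 were lower, against 28.4% and 22% of all genes; these are the cells in which Mpo and Ace differed as well. Kupffer cells had 5 and 12 of 84 higher (13.7% and 18.4% of all genes) and 0 lower in either library (7.35% and 10.9%). In T cells of the control-labelled library 35 of 77 were higher and 2 lower (20.3% and 23.5% of all genes), and in NK cells or ILC1 24 of 70 were higher and 3 lower (19.3% and 24.7%). Cox7a2l went the other way in monocytes, at -0.76 and -1.06, and was also among the 4 lowest in T cells (-0.55) and NK cells or ILC1 (-0.76). In stellate cells of the control-labelled library 22 of 87 were higher and 1 lower (25.5% and 15.7% of all genes), and that 1 was Ndufa4l2. Calls of at least 1.5-fold higher were thus rarer among members than among all genes in endothelial and Kupffer cells. In stellate cells they were about as frequent.

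In monocytes the ratio between the libraries turned within each state. Over all cells of the class, 17 of 85 measured members were at least 1.5-fold higher in the knockout-labelled library and 0 lower, where 19.8% and 14.9% of all measured genes were, and the member median was 0.36. Among cells with no cycling marker (592 and 77 cells) the summed members stood at 9698 and 9286 CPM (-0.06, -0.10 to -0.02), and among cycling cells (23 and 112 cells) at 15821 and 14120 CPM (-0.16, -0.20 to -0.12). Cycling cells were 3.18% of the class in 1 library and 54.1% in the other, and within both states the sum was lower in the knockout-labelled library. Beside Mpo, Elane, another granule gene of progenitors, stood at 608.2 and 1056 CPM in the cycling cells and at 1.10 and 3.25 CPM in the others. Mpo, Elane, Ace, Ly6c2 and Ccr2 were chosen here after their values were seen.

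In the other classes the comparison could be made in cells with no cycling marker: the ratio of the summed members was -0.08 in endothelial cells, -0.10 in Kupffer cells and -0.12 in stellate cells, each smaller in size than over all cells of the class, and in endothelial cells smaller than the scaling shift of 0.145. It was -0.28 in T cells, -0.28 in B cells, -0.26 in NK cells or ILC1 and -0.21 in conventional dendritic cells, and 0.07 in hepatocytes. Among cells with no cycling marker, 8 of the 9 main classes thus had a sum lower in the knockout-labelled library, with hepatocytes as the exception.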

How the data were processed

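The authors deposited a matrix of whole-number counts per gene and barcode for each library, not normalized, with gene symbols. Per the submitters' processing notes, GRCm39 was used. Aligner, counter and any collapse of molecular identifiers are not stated here, so reads shared with the processed pseudogenes that many members have may sit in either copy, and intervals may be too narrow even for counting error. A barcode needed 300 genes, 500 counts and no more than 25% of counts from mitochondrial genes, a filter that 7917 and 8799 of 10000 passed, at a median of 7972 and 9506 counts per cell; 2 cell index numbers were shared by both libraries. Scrublet in Scanpy 1.11.5 marked 0.0126% and 0.0114% of cells by its automatic threshold, so it had not worked, and the top 5% of scores (371 and 438 cells) were removed.

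A cell was gated into a class by the number of markers of the class it showed (for example 7 of 10 for endothelial cells and 5 of 7 for hepatocytes), with thresholds set after marker counts were seen. Cells that passed the gates of several classes (1371 and 1497, with a median of 18961 and 25469 counts) or of none (1157 and 430) were left out, except that cells of both the stellate and the smooth muscle gate went to the latter. Counts were summed per class and library and divided by the class total to give CPM. Intervals were exact Poisson for levels, exact conditional for ratios and Clopper-Pearson for shares (SciPy 1.17.1), at 95%. With 1 library per genotype label no test was possible. Alternatives covered cell filter, gate, doublets, denominator, scaling (TMM in edgeR 4.0.16, median-of-ratios in DESeq2 1.42.0), weight of cells, low-value filter and fold. The functions were tested on simulated data.

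Members were named by rule: 1 core subunit per complex, the tissue-restricted paralogs and modulators, the 4 highest and 4 lowest ratios in endothelial, Kupffer and stellate cells, and the 5 widest and 3 narrowest ranges between classes. Members named beside these were chosen after their values were seen. The members and lists were chosen with earlier results of these data known. Other assembly factors (33 genes) and carriers, cytochrome c and import genes (12 genes) were read as well. In endothelial cells 0 of 25 and 0 of 12 measured ones were at least 1.5-fold higher, and 0 and 2 (Slc25a5 and Timm23) lower. Of all measured genes in endothelial cells, 5.76% were at least 1.5-fold higher and 14% lower.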

Additional observations from a re-analysis of the deposited data

Results flagged for a closer look

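Hepatocytes (0.060) and monocytes (0.336) had a log2 ratio of the summed members, labelled knockout over labelled control, of the opposite sign to the other 7 main classes. These differences between classes were not tested, since each class has 1 library per label. The hepatocyte ratio turned to -0.047 under a looser marker gate and to -0.103 with the mean of per-cell CPM. Within states of the cell cycle the monocyte ratio was -0.063 and -0.164.

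Single members were at least 1.5-fold apart in opposite directions in 2 or more main classes, with counting intervals on either side of 0. These differences were not tested either, and how many of all genes meet this rule was not counted. In monocytes 19.8% of all measured genes were at least 1.5-fold higher, and in B cells 18% were at least 1.5-fold lower. Atp5b was 0.794 in monocytes and -0.635 in NK cells or ILC1. Atp5k, a small subunit of the ATP synthase, was 0.704 in monocytes, -0.687 in B cells and -0.902 in NK cells or ILC1. Ndufc1, an accessory subunit of complex I, was 0.754 in monocytes, -0.914 in T cells and -1.432 in NK cells or ILC1. Monocytes were above 0 and B cells below 0 for Ndufa4 (0.727 and -0.622), Ndufa9 (0.726 and -0.868) and Ndufs5 (0.832 and -0.729). Ndufaf6 was 0.778 in monocytes and -0.585 in Kupffer cells, Ndufa13 was 0.690 in hepatocytes and -0.651 in conventional dendritic cells, and Ndufb5 was 0.633 in hepatocytes and -0.818 in B cells. Monocytes are the higher class in 7 of these 9 members, and cycling cells were 3.18% and 54.1% of that class.

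All 13 mitochondrially encoded subunits were at least 1.5-fold higher in hepatocytes of the knockout-labelled library, where 10.7% of all measured genes were. Their summed log2 ratio was 1.082, a size that no other main class reached. This rests on 188 and 52 cells and was not tested. The 52 cells held 1111265 counts at a median of 4865 per cell, so deep cells weigh heavily in their sum. The 188 cells held 1813174 counts at a median of 6298.5.

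Among the barcodes set aside, 1274 in the control-labelled library and 840 in the knockout-labelled library had over 90% mitochondrial counts.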

How the results depend on the processing

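No paired analysis was possible because each genotype label has 1 library, and for the same reason no library could be left out. Summed ratios, cycling ratios and counts not listed stayed within the counting interval, or within 1.5 times for counts. No ratio past 1.5-fold changed sign. The summed ratios whose sign turned are those of hepatocytes under the looser gate and the mean of per-cell CPM, and monocytes within each state of the cell cycle. The ratios of single complexes moved in 45 of 180 values and changed sign in 9, the shares of paralogs moved in 1 of 48 values and the named ratios in 16 of 240. The 2 cell states and the matched depth were chosen after seeing the data; the cause of the changes was not tested. Depth limits the small classes, where a member has few counts. Below, counts are of members past the limit, and classes and, for cycling ratios, library labels stand in brackets. The number of measured members and the share of all genes under each alternative are not listed here. The counts below thus cannot be read against a background. 

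The smaller alternative fold limit gave higher members of 3 (endothelial), 1 (Kupffer), 47 (monocyte), 4 (dendritic), 6 (B), 4 (T), 8 (NK), 3 (stellate) and 19 (hepatocyte), lower members of 11 (endothelial), 15 (Kupffer), 16 (dendritic), 41 (B), 39 (T), 42 (NK), 25 (stellate) and 7 (hepatocyte). Cycling cells alone gave higher members of 3 (endothelial), 5 (Kupffer) and 6 (monocyte), lower members of 7 (Kupffer) and 8 (monocyte), summed ratios of -0.044 (Kupffer) and -0.164 (monocyte). The looser gate gave higher members of 3 (dendritic), 5 (B), 1 (stellate) and 1 (hepatocyte), lower members of 1 (endothelial), 12 (B) and 5 (hepatocyte), summed ratios of -0.131 (endothelial), 0.365 (monocyte), -0.275 (B) and -0.047 (hepatocyte), cycling ratios of 0.237 (endothelial, knockout), 0.296 (Kupffer, control) and 0.568 (monocyte, control). The mean of per-cell CPM gave higher members of 5 (B), 2 (T), 1 (stellate) and 3 (hepatocyte), lower members of 1 (endothelial), 0 (Kupffer), 20 (T) and 8 (hepatocyte), summed ratios of -0.083 (endothelial), -0.12 (Kupffer), 0.245 (monocyte), -0.386 (T), -0.144 (stellate) and -0.103 (hepatocyte), cycling ratios of 0.648 (monocyte, control) and 0.52 (monocyte, knockout). No filter on low values gave higher members of 2 (Kupffer), 4 (NK) and 1 (stellate), lower members of 6 (endothelial), 2 (Kupffer) and 1 (hepatocyte). A limit of 2-fold gave higher members of 3 (monocyte), 0 (dendritic), 0 (B), 0 (NK) and 1 (hepatocyte), lower members of 0 (endothelial), 0 (Kupffer), 0 (dendritic), 5 (B), 0 (T), 3 (NK) and 0 (stellate). Cells with no cycling marker alone gave higher members of 4 (monocyte), 0 (dendritic), 3 (T), 4 (NK) and 1 (stellate), lower members of 1 (endothelial), 3 (monocyte), 7 (dendritic), 17 (T), 10 (NK) and 2 (hepatocyte), summed ratios of -0.082 (endothelial), -0.095 (Kupffer), -0.063 (monocyte), -0.206 (dendritic), -0.279 (B), -0.265 (NK) and -0.12 (stellate). The stricter gate gave higher members of 11 (monocyte), 1 (B), 0 (T) and 4 (NK), lower members of 8 (dendritic) and 3 (hepatocyte), summed ratios of -0.173 (endothelial), -0.151 (Kupffer), 0.208 (monocyte) and -0.333 (T), cycling ratios of 0.314 (endothelial, knockout), 0.247 (Kupffer, knockout), 0.485 (monocyte, knockout) and 0.35 (stellate, control). Leaving mitochondrial and ribosomal protein counts out of the total gave higher members of 1 (NK) and 10 (hepatocyte), lower members of 2 (Kupffer), summed ratios of -0.164 (endothelial), -0.174 (Kupffer) and 0.165 (hepatocyte), cycling ratios of 0.751 (monocyte, control) and 0.39 (T, control). TMM scaling gave higher members of 0 (NK) and 34 (hepatocyte), lower members of 0 (Kupffer), summed ratios of -0.005 (endothelial), -0.097 (Kupffer), 0.261 (monocyte), -0.441 (NK), -0.149 (stellate) and 0.543 (hepatocyte). Median-of-ratios scaling gave higher members of 5 (B), 0 (NK) and 32 (hepatocyte), lower members of 0 (Kupffer) and 14 (B), summed ratios of -0.005 (endothelial), -0.089 (Kupffer), 0.278 (monocyte), -0.253 (B), -0.404 (NK), -0.107 (stellate) and 0.535 (hepatocyte). The looser cell filter gave higher members of 5 (B), lower members of 0 (Kupffer) and 14 (B). Keeping the top Scrublet scores gave lower members of 0 (Kupffer). A minimum of 50 CPM gave higher members of 11 (monocyte), 0 (B), 0 (T) and 0 (NK), lower members of 0 (Kupffer) and 1 (stellate). Leaving mitochondrial counts out of the total gave higher members of 10 (hepatocyte), summed ratios of -0.159 (Kupffer) and 0.183 (hepatocyte). The stricter cell filter gave higher members of 0 (dendritic) and 1 (NK), lower members of 1 (hepatocyte). Non-cycling cells of matched depth gave cycling ratios of 0.232 (endothelial, control).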

Other observations

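Neutrophils and erythroid cells, both small classes, lay below the main classes within each library. Neutrophils (29 and 156 cells) stood at 6033 and 5328 CPM, and erythroid cells (12 and 24 cells) at 6429 and 3678 CPM beside globin and other erythroid markers at 305126 and 589964 CPM. Mesothelial cells (49 and 18 cells) stood at 12002 and 8845 CPM, with stellate markers at 3197 and 9177 CPM beside 4092 and 5216 CPM of their own. Cholangiocytes (3 and 27 cells) stood at 12397 and 12275 CPM, with the hepatocyte list at 13989 and 7215 CPM beside 2730 and 2900 CPM of their own markers. The part of stellate and hepatocyte RNA in these levels was not tested. Neutrophils were also low in mitochondrially encoded subunits, at 41051 and 32316 CPM.

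Paralogs outside the main classes gave further values. Cox6b2 stood at 20.4 CPM (17 counts) and 12.6 CPM (4 counts) in mesothelial cells and at 90.2 CPM (7 counts) and 47.7 CPM (5 counts) in erythroid cells. Cox7a1 had 14 counts in cholangiocytes of the knockout-labelled library (34.3 CPM), 21.2% of its pair with Cox7a2. The complex I assembly factor Ndufaf6 stood at 32.4 and 20.7 CPM in conventional dendritic cells, at 41.9 and 47.7 CPM in hepatocytes and at 12.8 and 8.51 CPM in Kupffer cells.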
